A study of Homo sapiens with 18 samples.

Results

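ROBO2 and ROBO1 are cell-surface receptors of the Roundabout family, and SLIT2 is a secreted ligand of these receptors. The QKI binding described here was read from all 12 deposited peak lists as the rows that overlap, on the transcribed strand and in hg19 coordinates, ROBO2 (plus strand of chromosome 3, 75955846 to 77699115), ROBO1 (minus strand of chromosome 3, 78646388 to 79816965) and SLIT2 (plus strand of chromosome 4, 20255235 to 20620788). These 3 genes took 3460 of 889743 rows. RefSeq lists further genes that overlap each of them, among these long noncoding RNAs, pseudogenes and microRNAs. Rows were not divided between those and the named genes. The genes were chosen by the numbers of peaks per day in these same libraries, so differences between days are given as descriptions with no test.

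The libraries are eCLIP libraries of HUES6, 1 human embryonic stem cell line, from an antibody against QKI. At day 0 the cells were pluripotent and had been replated overnight in growth medium. At day 4 they were cardiac progenitors that had received CHIR (1.5 uM) and BMP4 (1.5 ng/mL) and then C59 (100 nM). At day 8 they had received the same agents and were crosslinked as cardiomyocytes once beating was seen. The labels give the C59 dose as 100 nM up to day 4 and write 100 mM for the medium added after it, and the conflict could not be settled. Each day had 3 immunoprecipitated (IP) libraries, scored by the authors against input, and the labels did not say whether these came from separate cultures. The lists hold no RNA levels, so the cell types on the labels could not be checked against markers. For the same reason fewer bound molecules, less RNA of a gene per cell and fewer cells that make it cannot be told apart in anything below.

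SLIT proteins bind the extracellular part of ROBO receptors, and this signal steers growing axons and migrating cells by acting on the actin cytoskeleton. The pathway is also known for a part in the forming heart, where its loss in animal models disturbs the septa and valves. QKI belongs to the STAR family of RNA-binding proteins. It recognises ACUAA-containing stretches of RNA and is known for its part in splicing and in the stability of messages. In eCLIP, ultraviolet light links the protein to RNA in living cells, and stretches enriched in the IP over input mark where it was bound.

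A cluster is any row that the authors listed for a library, and a passing peak is a cluster with at least 4-fold enrichment over input and a p-value of at most 0.001, both by the authors' values. Libraries held 52462 to 187962 clusters and 3030 to 15508 passing peaks, most of them at day 0. Summed over the 3 libraries of a day, 8.78% of all clusters passed at day 0, 6.36% at day 4 and 11.9% at day 8. Read depth was unknown, because the files hold peaks and no reads. On the opposite strand of the 3 genes, no library listed a single cluster, against 2721 clusters on the transcribed strand of ROBO2, 403 of ROBO1 and 248 of SLIT2. The peak caller is not given, so whether clusters could be listed there at all is unknown. The empty strand is therefore no measure of background.

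ROBO2, the receptor with the densest binding at day 0, was bound along its first 1100 kb on that day and at few places later. It held 136, 125 and 107 passing peaks in the day 0 libraries, 1, 6 and 2 in the day 4 libraries, and 0, 0 and 1 in the day 8 libraries. The day 0 values lay far above the others with no overlap. As a share of each library's passing peaks, ROBO2 averaged 0.893% ± 0.0842 at day 0, 0.0534% ± 0.0223 at day 4 and 0.00304% ± 0.00526 at day 8 (SD, n = 3 each). These shares did not overlap between any pair of days. For scale, same-strand stretches of reproducible peaks joined within 20 kb are called loci here. A locus is not a whole gene, as ROBO2 alone holds 18, ROBO1 4 and SLIT2 2. Most loci, 3524 of 3755, hold reproducible peaks of day 0, and the 259 loci used next include some of ROBO2 itself. The shares of loci are thus a rough scale only. Of the 259 loci with at least 30 passing peaks, 28.2% had all 3 day 8 shares below all 3 day 0 shares, 27% had their day 4 shares below those of day 0, and 11.2% had their day 8 shares below those of day 4. On summed peaks the ROBO2 share at day 8 was 0.00534 times that at day 0 (exact 95% counting interval 0.000135 to 0.0299), from 1 peak against 368. At day 4 the ratio to day 0 was 0.0682 (0.0309 to 0.131), from 9 peaks. Peaks that abut are counted apart and are not independent. These intervals, and those for ROBO1 and SLIT2 below, cover counting error only and leave out the spread between libraries. They rest on the counts by which the genes were chosen, so none of them is a test of days.

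Clusters below the threshold followed the same course. ROBO2 had 685, 998 and 976 clusters of any fold at day 0, 5, 22 and 21 at day 4, and 3, 6 and 5 at day 8. The clusters that were listed later were mostly enriched but thin: 13 of 14 at day 8 and 36 of 48 at day 4 had the fold but not the p-value, against 496 of 2659 at day 0. Over all genes, clusters of this kind were 42.3% of the day 8 total, 37.0% of the day 4 total and 31.3% of the day 0 total. Of day 0 clusters, 13.8% passed in ROBO2 against 8.78% of all clusters, with 19.9% against 15.2% in replicate 1, 12.5% against 7.06% in replicate 2 and 11.0% against 6.95% in replicate 3. The median log2 fold was 3.49 among ROBO2 passing peaks of day 0 against 4.16 among all passing peaks of that day.

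**Figure D1:**
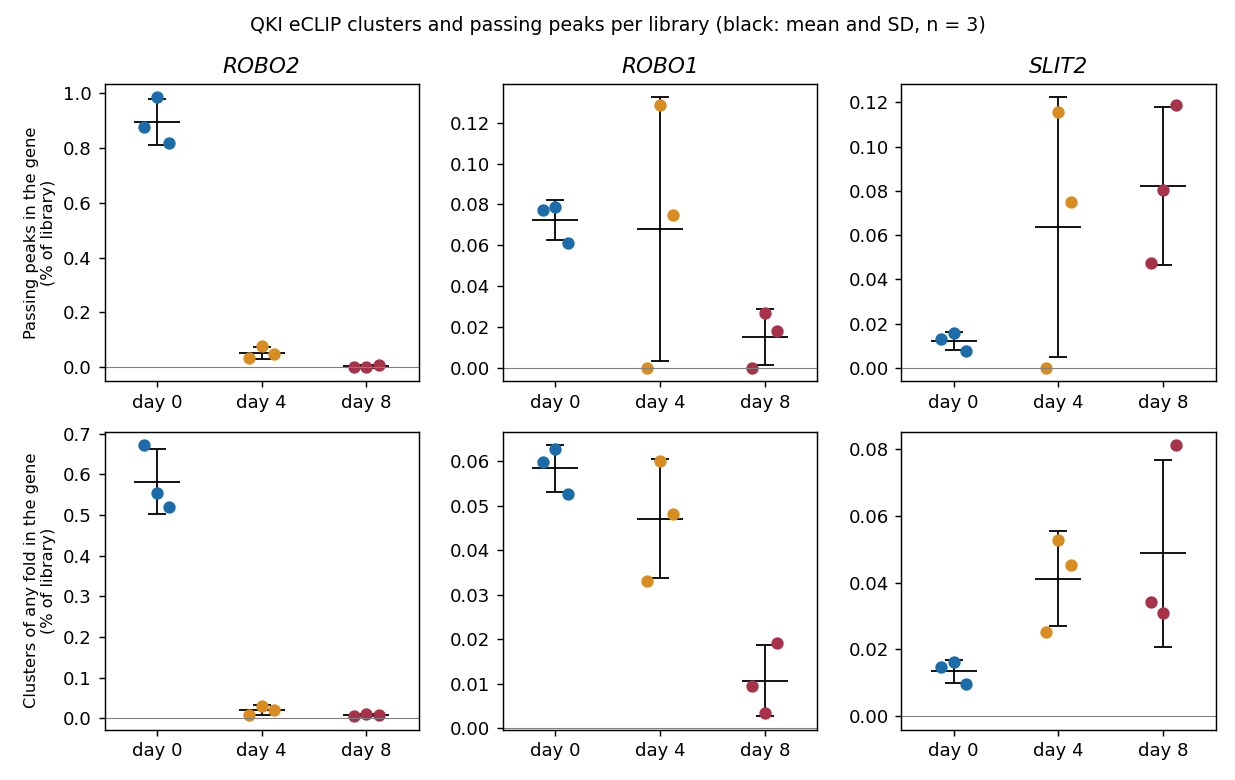
Share of each library's passing peaks (top row) and of its clusters of any fold (bottom row) that lay in ROBO2, ROBO1 or SLIT2, in percent, by day. Points are libraries, black marks are the mean and SD of 3 libraries, and each panel has its own vertical axis. ROBO2 shares of passing peaks average 0.893% at day 0 and 0.00304% at day 8, and SLIT2 shares average 0.0121% at day 0 and 0.0822% at day 8.

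Overlapping or touching passing peaks of the 9 libraries were merged into footprints, and ROBO2 had 151. All 151 passed in at least 1 day 0 library, against 65.3% of footprints in the series. They passed in all 3 day 0 libraries in 57 cases (20.3% in the series), in 2 in 30 cases and in 1 in 64 cases. A day 4 or day 8 library had a passing peak at 7 of the 151 (59.7% in the series), so 144 were passing in day 0 libraries alone, 95.4% of the footprints against 40.3% of all 29356 footprints in the series. Of these 151, 56 passed in 3 of 3 day 0 libraries and in 0 of 3 at day 8, a pattern of 9.45% of all footprints, and 51 showed it against day 4 (9.11%). These patterns are part of what led to the choice of ROBO2 and support nothing further. A cluster of any fold lay over 19 of the 151 footprints at day 4 and over 3 at day 8. The same share over all footprints was not computed. Later libraries listed fewer clusters in all, 232874 at day 4 and 176589 at day 8 against 469979 at day 0, summed per day.

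Exons, introns and untranslated regions were not assigned, as no hg19 annotation was used. The ROBO2 footprints were narrow, 8 to 383 nt wide with a median of 76 nt, and neighbours lay a median of 2.65 kb apart. The first footprint lay 37.7 kb from the gene start. Of the 151 footprints, 113 lay in the first 600 kb and 150 in the first 1100 kb, and the remaining 1 lay at 1696 kb, after a gap of 652 kb. Summed over the day 0 libraries, the first 200 kb held 85 passing peaks, the next 200 kb 121, and the 3 following stretches of 200 kb 74, 37 and 41. The clusters of any fold thinned out at the same place. Beyond 1100 kb the day 0 libraries listed 17, 40 and 27 clusters, against 668, 958 and 949 before it. At day 8 the order was turned, with 2, 5 and 4 clusters beyond 1100 kb and 1 before it in each library.

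**Figure D2:**
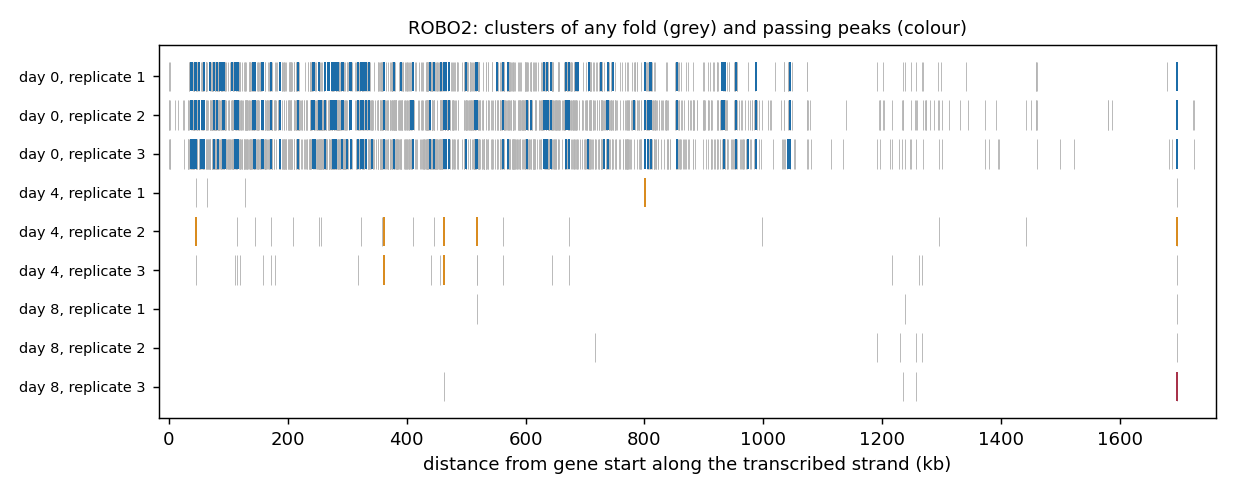
Positions of QKI clusters along ROBO2, as distance from the gene start in kb, with 1 row per library. Grey lines are clusters of any fold and coloured lines are passing peaks. The 3 day 0 libraries are filled over the first 1100 kb with 134, 123 and 105 passing peaks, the day 4 libraries hold 1, 5 and 2 there and the day 8 libraries none, and the site at 1696 kb has a cluster in every library.

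The 3 day 0 libraries shared part of their ROBO2 positions. The Jaccard index over nucleotides of passing peaks was 0.490 for replicates 1 and 2, 0.436 for replicates 1 and 3, and 0.515 for replicates 2 and 3. Over all passing peaks the same pairs gave 0.407, 0.376 and 0.413. Where 2 libraries both listed a cluster at a footprint (110 to 117 footprints per pair), their log2 folds went together with Spearman's rho of 0.523 to 0.639, a description over sites that share transcript and library.

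ROBO2 accounted for 79 of the 7778 peaks in the authors' reproducible list of day 0, which pools the 3 libraries, and for none of the 947 at day 4 or the 1576 at day 8. The 79 peaks fell into 18 loci. The fullest locus (76198522 to 76287701) held 21 reproducible peaks and ranked 12 among the 3524 loci of that day. In its 89.2 kb the day 0 libraries had 35, 39 and 26 passing peaks, and no library of day 4 or day 8 had any. A compact locus of 2.75 kb (76471670 to 76474424) held 10 reproducible peaks and 10 passing peaks in each day 0 library, against 1 passing peak at day 4, in replicate 2, and none at day 8. The reproducible peak with the highest authors' log2 fold (8.02) lay at 76418904 to 76418989, and the next 2 (7.80 and 7.58) lay side by side in the compact locus, at 76474256 to 76474280 and 76474281 to 76474329.

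Single sites of ROBO2 differed in what was left of them. The footprint at 463 kb (76418856 to 76418992) had authors' log2 folds of 7.04, 7.99 and 9.08 at day 0, with −log10 p of 80.6, 127 and 123. At day 4 it passed in replicates 2 and 3 with 4.89 and 5.02, and at day 8 replicate 3 listed a cluster of 3.27 that did not pass. The footprint at 361 kb (76316958 to 76317092) passed with 5.49, 6.25 and 5.34 at day 0 and with 5.18 and 4.25 in day 4 replicates 2 and 3, and no day 8 library listed a cluster there. These were the 2 ROBO2 footprints that passed in more than 1 day 4 library.

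The site at 1696 kb (77651907 to 77652235), at 97.3% of the gene's length, was the exception among ROBO2 footprints. It was the 1 footprint of 151 with a cluster in all 9 libraries. The share of all footprints with this was not computed. It was 329 nt wide, against a median of 76 nt in ROBO2. Its log2 folds were 8.08, 5.67 and 7.48 at day 0, 3.70, 5.31 and 3.02 at day 4, and 3.13, 3.88 and 4.49 at day 8. All 3 day 0 clusters passed, as did replicate 2 at day 4 and replicate 3 at day 8. The day 8 folds all lay below the day 0 folds, and how often this held at other footprints was not computed. This was also the site of the 1 passing ROBO2 peak of day 8, which came from the day 8 library with the most passing peaks of that day, 10966 against 6320 and 3726. The part of library size in that peak was not tested.

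ROBO1, the second receptor, carried far fewer peaks than ROBO2 at day 0, with day 4 libraries that overlapped those of day 0. It had 12, 10 and 8 passing peaks in the day 0 libraries, 0, 10 and 3 at day 4, and 0, 1 and 2 at day 8. The day 4 libraries spanned the whole range from none to the day 0 level, and the day 8 libraries stayed below every day 0 library, in number and in share, as did the day 8 shares of 28.2% of the 259 loci. Shares of passing peaks averaged 0.0725% ± 0.00976 at day 0, 0.0679% ± 0.0646 at day 4 and 0.0150% ± 0.0137 at day 8 (SD, n = 3 each). The difference of day 4 minus day 0, -0.00458 percentage points, was well inside the spread, and without day 4 replicate 1 it turned to 0.0294. That library had the fewest passing peaks of all 9, 3030. On summed peaks the day 4 share was 1.21 times the day 0 share (exact 95% counting interval 0.578 to 2.39), from 13 peaks against 30. Of these 13, 10 came from day 4 replicate 2. The sum weighs libraries by their size and the mean does not, and they differ in direction here. For clusters of any fold the ratio was 0.821 (0.652 to 1.03). The day 8 share was 0.196 times the day 0 share (0.0384 to 0.632), from 3 peaks against 30. For clusters of any fold, ROBO1 had 61, 113 and 99 at day 0, 21, 42 and 48 at day 4, and 5, 2 and 12 at day 8. As shares of all clusters, the day 8 values lay below all day 4 values, and 2 of the 3 day 4 values lay below the day 0 range. For clusters, the share of loci with such a separation was not computed. In ROBO1 10.99% of day 0 clusters passed, against 8.78% of all clusters.

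ROBO1 was bound in the part of the gene farthest from its start. No library listed a cluster of any fold in the first 748.4 kb from the gene start, and the first passing footprint lay at 749 kb. RefSeq lists 2 promoters of ROBO1 in GRCh38.p14, and within that build they lie 748.5 kb apart. For ROBO2 it also lists 2 promoters, 729 kb apart, and ROBO2 had no such empty stretch, with its first cluster 0.232 kb from the gene start. Which promoter was in use was not tested.

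ROBO1 had 15 footprints, of 24 to 251 nt. Of these, 13 passed in a day 0 library, 11 in a day 4 library and 3 in a day 8 library, where the series had 65.3%, 32.5% and 43.5%. In all 3 day 0 libraries 6 of the 15 passed, against 20.3% of all footprints. Each of these 6 passed in at least 1 later library too, as did 65.5% of the 5954 such footprints in the series and 6 of the 57 in ROBO2. Of the 15, 4 passed in 3 of 3 day 0 libraries and 0 of 3 at day 8 (9.45% of all footprints), and none did so against day 4 (9.11%). The authors' reproducible list of day 0 held 7 ROBO1 peaks, and the lists of day 4 and day 8 held none. The highest had log2 folds of 5.95 (79033035 to 79033191), 5.83 (78696449 to 78696588) and 5.64 (78698916 to 78699046).

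The ROBO1 sites that passed in the most libraries lay together near the end of the gene. In ROBO2 the footprints at 361 and 463 kb passed in as many libraries (5) as that at 1696 kb. The footprint at 1118 kb (78698909 to 78699046, 95.5% of the gene's length) had log2 folds of 6.13, 4.70 and 5.98 at day 0, 2.12, 5.63 and 5.61 at day 4, and 3.50 and 4.69 in day 8 replicates 1 and 3. It passed in 6 libraries, the 3 of day 0, replicates 2 and 3 of day 4 and replicate 3 of day 8. The footprint at 1120 kb (78696449 to 78696699) passed in 6 libraries too, with 5.94, 6.35 and 5.21 at day 0, 5.63 and 4.25 in day 4 replicates 2 and 3, and 4.88 in day 8 replicate 2. Folds at day 4 overlapped those at day 0 at both sites. By contrast, the footprints at 784 kb (79032992 to 79033191) and 791 kb (79025453 to 79025553), which passed in 3 of 3 day 0 libraries and in day 4 replicate 2, had no cluster of any fold at day 8. The footprints at 833 kb (78984279 to 78984332) and 1105 kb (78711685 to 78711742) passed in day 4 replicate 2 alone, and both had clusters below the threshold at day 0.

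SLIT2, the ligand, went the other way from its receptors and had more passing peaks at day 8 than at day 0, from a low base. The day 0 libraries held 2, 2 and 1 passing peaks, the day 4 libraries 0, 9 and 3, and the day 8 libraries 3, 3 and 13. Every day 8 library was above every day 0 library, and the day 4 libraries overlapped both. Shares of passing peaks averaged 0.0121% ± 0.00411 at day 0, 0.0636% ± 0.0587 at day 4 and 0.0822% ± 0.0356 at day 8 (SD, n = 3 each). Of the 259 loci named above, 21.2% had all day 8 shares above all day 0 shares. On summed peaks the day 8 share was 7.46 times the day 0 share (exact 95% counting interval 2.70 to 25.6), from 19 peaks against 5, and the day 4 share 6.69 times (2.19 to 24.2), from 12 peaks. As above, these intervals leave out the spread between libraries and are no test of days. Day 8 replicate 3 gave 13 of the 19 peaks and day 4 replicate 2 gave 9 of the 12. These were the libraries with the most passing peaks of their day, 10966 and 7775, and the part of library size was not tested. Without day 8 replicate 3 the difference of day 8 minus day 0 was 0.0519 percentage points, against 0.0701 with it. Without day 4 replicate 2 the difference of day 4 minus day 0 was 0.0254, against 0.0515 with it, and without replicate 1 it was 0.0833. The difference of day 8 minus day 4, 0.0186, lay within the spread and turned to -0.0132 without day 4 replicate 1.

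The clusters of any fold in SLIT2 numbered 15, 29 and 18 at day 0, 16, 37 and 45 at day 4, and 18, 19 and 51 at day 8. Numbers alone thus overlapped between days, but day 0 libraries listed more clusters in all, and as shares of these SLIT2 averaged 0.0135% ± 0.00344 at day 0, 0.0411% ± 0.0142 at day 4 and 0.0488% ± 0.0280 at day 8 (SD, n = 3 each). The lowest day 4 and day 8 shares were above the highest of day 0. How often other loci show this for clusters of any fold was not computed. Of the SLIT2 clusters, 8.06% passed at day 0, 12.2% at day 4 and 21.6% at day 8, against 8.78%, 6.36% and 11.9% of all clusters on those days.

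SLIT2 had 14 footprints, of 56 to 174 nt, from 30.8 kb to 356 kb from the gene start. Of these, 4 passed in a day 0 library, 9 in a day 4 library and 12 in a day 8 library (65.3%, 32.5% and 43.5% in the series). In all, 10 of the 14 passed in day 4 or day 8 libraries and in none of day 0, 71.4% against 34.7% of all footprints. None passed in 3 of 3 day 8 libraries and 0 of 3 at day 0, a pattern of 1.68% of all footprints. A cluster of some fold was listed in a day 0 library at 11 of the 14 positions, and 3 had one in all 9 libraries. Some of these were weak. At 88.2 kb and 272 kb the only day 0 cluster, in replicate 2, had log2 fold 2.29 and −log10 p 0.803. The shares of all footprints with a day 0 cluster, or with a cluster in all 9 libraries, were not computed. The positions at 195 kb (20449737 to 20449847) and 333 kb (20588659 to 20588714) had a cluster in 1 library only, day 8 replicate 3.

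**Figure D3:**
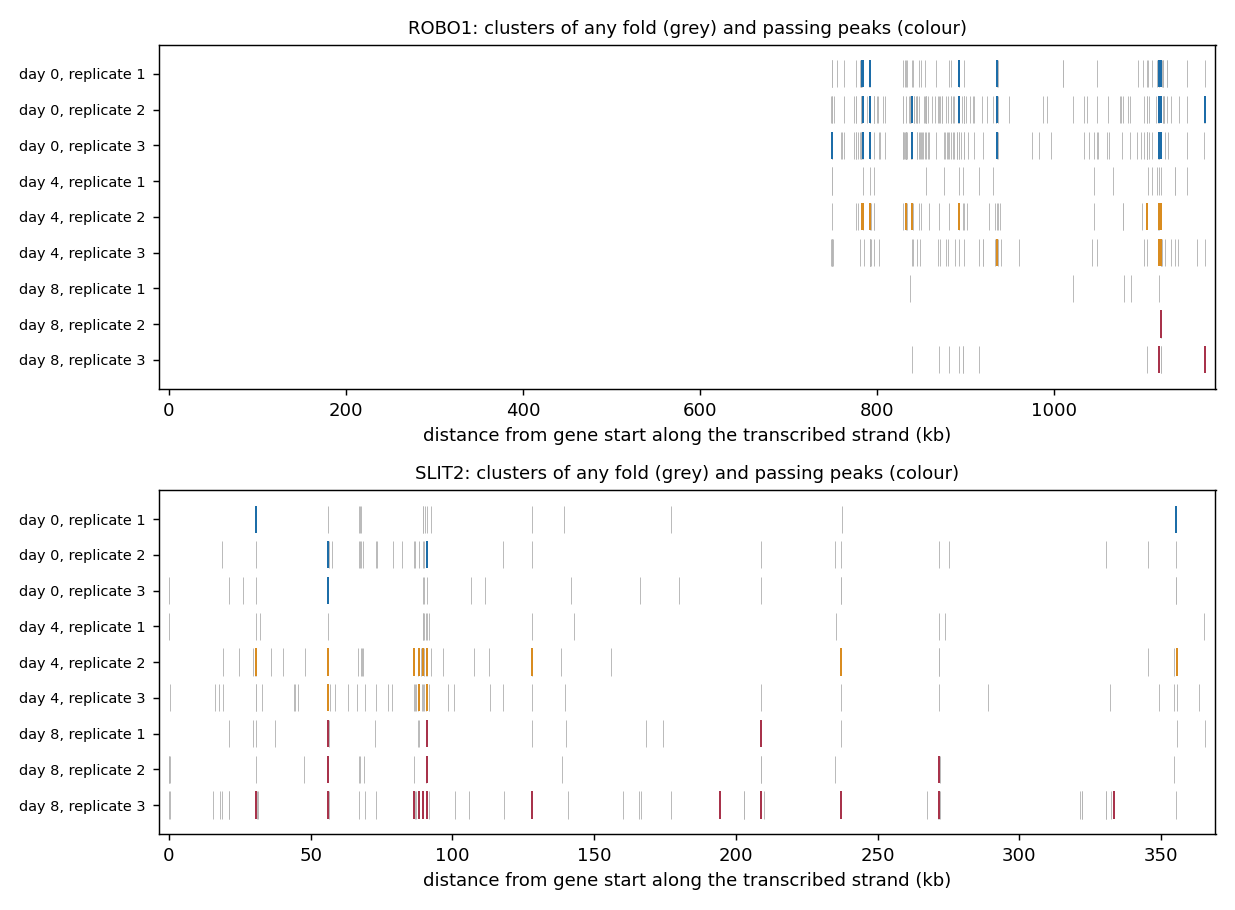
Positions of QKI clusters along ROBO1 (top) and SLIT2 (bottom), as distance from the gene start along the transcribed strand in kb, with 1 row per library. Grey lines are clusters of any fold and coloured lines are passing peaks. ROBO1 is empty up to 748.4 kb in all 9 libraries, and SLIT2 has its most frequent passing peaks at 56.1 and 91.2 kb.

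The SLIT2 binding that recurred most lay in the first 100 kb of the gene, where 6 of the 14 footprints fell. The footprint at 56.1 kb (20311272 to 20311369) passed in 7 of 9 libraries. Its log2 folds were 3.64, 4.79 and 4.12 at day 0, 2.29, 6.11 and 4.76 at day 4, and 5.23, 5.01 and 6.44 at day 8. The footprint at 91.2 kb (20346340 to 20346433) passed in 6 of 9, with 3.91, 4.29 and 3.93 at day 0, 2.70, 5.31 and 6.08 at day 4, and 5.61, 4.013 and 6.39 at day 8. All 3 day 8 folds were above all 3 day 0 folds at the first site, and at the second the ranges overlapped. Folds depend on each library's input and are set side by side here without a test. These were also the 2 SLIT2 footprints that passed in 3 of 3 day 8 libraries, as 6.24% of all footprints did, and they gave the 2 SLIT2 peaks in the authors' reproducible list of day 8, with log2 folds of 5.56 (20311272 to 20311366) and 5.32 (20346340 to 20346399). The reproducible lists of day 0 and day 4 held no SLIT2 peak.

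Between these 2 sites lay a group of 3 further footprints, at 86.4 kb (20341580 to 20341642), 88.2 kb (20343359 to 20343444) and 89.6 kb (20344700 to 20344873). None of them passed at day 0, and each passed in day 4 replicate 2 and in day 8 replicate 3. The footprint at 88.2 kb also passed in day 4 replicate 3. At 272 kb (20526987 to 20527064) a footprint passed in day 8 replicates 2 and 3 with log2 folds of 4.36 and 4.69 and in no other library. The first SLIT2 footprint, at 30.8 kb (20285946 to 20286027), had a cluster in all 9 libraries and passed in 1 of 3 at each day.

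**Figure D4:**
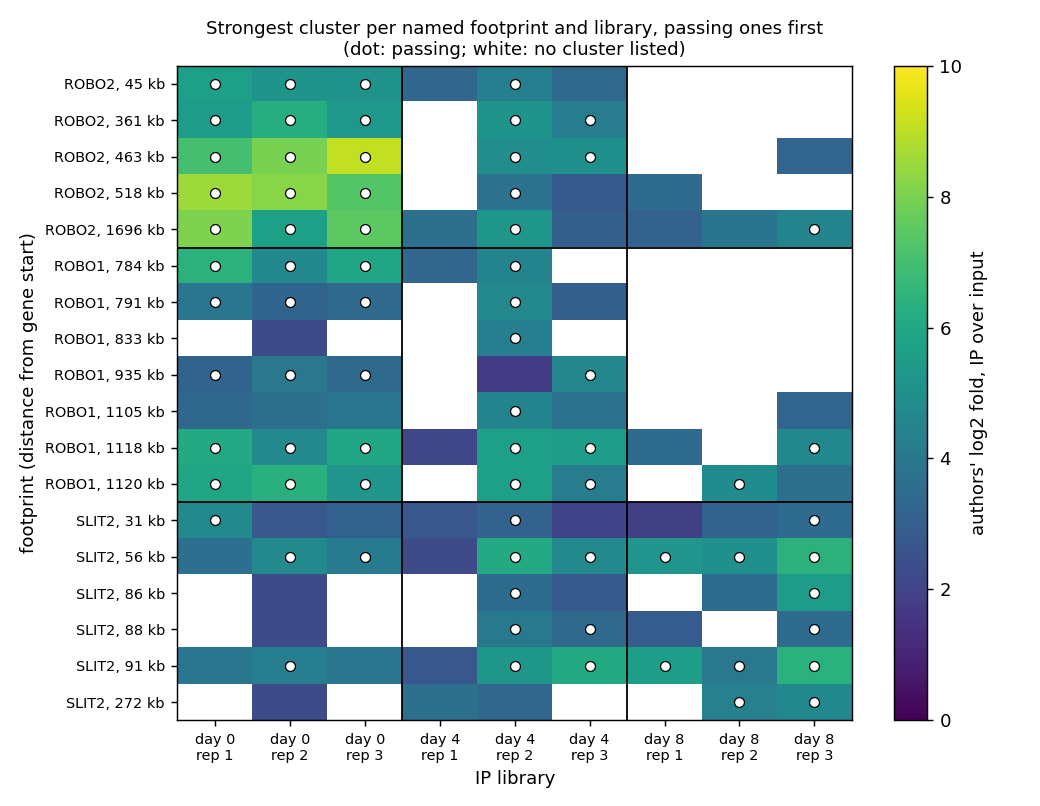
Authors' log2 fold of IP over input (colour, 0 to 10) in each IP library for the named footprints of the 3 genes, ordered by distance from the gene start. Each cell shows the strongest passing cluster, or the strongest cluster where none passed, dots mark passing clusters and white cells have no cluster listed. The ROBO2 rows are bright at day 0 and mostly white at day 8, while the SLIT2 rows at 56 and 91 kb are filled in all 9 libraries.

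The gene limits had little part in these numbers. No cluster straddled a limit of ROBO2 or ROBO1, and 1 straddled the start of SLIT2. The nearest same-strand passing peak outside ROBO2 lay 2898 kb away and that outside ROBO1 1772 kb away. At SLIT2 the last passing peak inside lay 9.97 kb before the gene end, and 1 passing peak of day 8 replicate 3, with a log2 fold of 2.56, lay 0.751 kb beyond it and was not counted.

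Loci with a course most like each gene were ranked by Pearson's r over the 9 libraries of the log2 share of passing peaks, among 256 loci with at least 30 passing peaks outside the 3 genes. They are named by position, as no gene names come with the lists, and r over libraries that share day and depth is a description. Closest to ROBO2 were minus-strand chromosome X 113162780 to 113166579 (r = 0.959), plus-strand chromosome 4 93735054 to 93786189 (0.958), minus-strand chromosome 3 31712390 to 31719968 (0.954), minus-strand chromosome 19 49324892 to 49326150 (0.953) and plus-strand chromosome 8 72594116 to 72606830 (0.9495). The chromosome 4 locus held 23, 18 and 19 passing peaks at day 0, 0, 1 and 0 at day 4, and none at day 8. Closest to ROBO1 were minus-strand chromosome 10 609327 to 626423 (0.877) and minus-strand chromosome X 102932348 to 102935541 (0.873), then plus-strand chromosome 6 15251562 to 15291732 (0.837), minus-strand chromosome 10 64999100 to 65017768 (0.826) and plus-strand chromosome 8 132325304 to 132329088 (0.814). Closest to SLIT2 was plus-strand chromosome 1 167976291 to 167998725 (0.918), with 4, 5 and 4 passing peaks at day 0, 1, 8 and 6 at day 4, and 6, 8 and 14 at day 8. Plus-strand chromosome 8 23630585 to 23632334 (0.887), minus-strand chromosome 2 179653814 to 179669759 (0.877) and 179585006 to 179623624 (0.852), and minus-strand chromosome X 11563785 to 11585415 (0.819) followed, and these had no passing peak at day 0.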

How the data were processed

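QKI eCLIP peak lists of 9 IP libraries and 3 lists of reproducible peaks were analysed, and the 9 input libraries entered only through the authors' scores. Reads were trimmed with cutadapt, aligned with STAR and handled with SAMtools on hg19, per the submitters' processing notes, which give no versions or order. The peak caller is not given in the sources used here. Per the file headers, all lists are input-normalized, and reproducible peaks are those of a 3-way IDR with a 4-fold minimum. The authors deposited for each peak the log2 fold of IP over input, its −log10 p-value (at most 400 in these files) and a browser score that was not used. Replicates were taken from the sample titles.

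Rows overlapping each gene by at least 1 nt on its strand were counted with Python 3.11.15, pandas 2.3.3 and numpy 2.4.6, after the interval code was tested on simulated data. Exact counting intervals came from scipy 1.17.1. Loci were ranked on log2 of (peaks + 0.5) over (passing peaks + 1) × 10000. The genes and all choices were made with earlier results of these data known. Named footprints were, per gene, the 5 passing in most libraries, the 5 passing in most day 4 and day 8 libraries, and the 3 highest reproducible peaks per day, and other positions and the split of ROBO2 at 1100 kb given in the text were chosen after their values were seen. No hg19 genome or annotation was used, so a planned search for ACTAAC or ACTAAT and a planned list of other SLIT and ROBO pathway genes were not run, and no sequences are shown.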

Additional observations from a re-analysis of the deposited data

How the results depend on the processing

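Differences between days in the share of passing peaks are in percentage points. The ROBO2 difference of day 4 minus day 0 (-0.840) became -0.687 with a log2 fold of at least 3, -0.5615 with clusters of any fold and -0.627 with the 3030 strongest peaks of each library. That of day 8 minus day 0 (-0.890) became -0.749, -0.574 and -0.693 in the same order, and that of day 8 minus day 4 (-0.0504) became -0.0123 with clusters of any fold. With the 3030 strongest peaks, day 8 minus day 0 was -0.0770 for ROBO1 (against -0.0574) and 0.121 for SLIT2 (against 0.0701). With a log2 fold of at least 3, 33 ROBO2 footprints passed in 3 of 3 day 0 and 0 of 3 day 8 libraries, against 56. Leaving out single libraries gave -0.0349 to 0.0294 for ROBO1 at day 4 minus day 0 and -0.0132 to 0.0447 for SLIT2 at day 8 minus day 4, and both turned without day 4 replicate 1. The other 52 such values kept their direction, but some moved far: ROBO1 at day 8 minus day 4 (-0.0529) was -0.0225 without day 4 replicate 2 and -0.0868 without day 4 replicate 1, and SLIT2 at day 4 minus day 0 (0.0515) was 0.0254 and 0.0833 without the same libraries. Under other settings, 41 of 51 values moved by less than the spread between libraries (footprint counts were judged by their ratio). With single libraries left out, ROBO2 at day 8 minus day 0 ranged from -0.928 to -0.845. The planned motif window was not run. Read depth is unknown, and its part in the day 4 and day 8 counts was not tested. No paired analysis was possible because the results come from no test, and the labels do not say that a replicate number marks a shared culture.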
